A study of Mus musculus with 41 samples.

Results

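Hormone receptors and the transcription factors of hormone-sensing luminal cells were followed across mouse mammary tumors through 9 genes, Esr1, Pgr, Foxa1, Gata3, Greb1, Areg, Tnfsf11, Cited1 and Kit. They were taken by symbol from a table of 47480 gene symbols, by a rule that uses no measured value. The 9 genes were, however, chosen with earlier results of these data known. All 9 were found, and all 9 were among the 17208 genes that passed the filter for testing, a mean value of at least 10 over the tumors. RNA from 41 tumors was sequenced, 1 library per tumor, 28 of them Plk2-/-; p53-/- and 13 of them p53-/-. Every tumor was thus p53-/- by label, and Plk2 was the gene that set the groups apart. To make the Plk2-/-; p53-/- tumors, mammary epithelial cells of such mice had been grafted into wild-type Balb/c hosts, in fat pads cleared of their own epithelium, and the tumors of both genotypes were then passed serially in Balb/c mice. The sequenced tumors were grown orthotopically in syngeneic hosts without treatment. The age of the mice is not given in the sources used here. The study placed some tumors in expression subtypes by clustering, and 8 of these are named here. PLK2null-1975 and p53null-2208L were luminal-like, PLK2null-1963 and PLK2null-7747 were basal-like, and PLK2null-732, PLK2null-733, PLK2null-743 and the p53-/- tumor T11 were claudin-low.

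In the normal gland, estrogen receptor and progesterone receptor are found in a subset of luminal cells, the hormone-sensing cells, where FOXA1 and GATA3 open chromatin for and cooperate with the estrogen receptor. These cells answer the hormones by releasing paracrine signals, among them amphiregulin and RANKL, that act on neighbouring cells without receptors. KIT, a receptor tyrosine kinase for stem cell factor, marks luminal progenitors, which for the most part lack the receptors. Claudin-low tumors are mesenchymal tumors with little expression of epithelial adhesion genes.

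The deposited values are estimated counts per gene scaled to an upper quartile of 1000 over the genes detected in each tumor. A value of 1000 is thus the level of a gene at the upper quartile of its tumor. A single read was worth 0.388 to 0.817 of these units, so that 3 reads, taken as the floor of detection, came to 1.16 to 2.45. Sequenced fragments on genes numbered 31910235 to 53244746 in the Plk2-/-; p53-/- tumors and 29409598 to 70868089 in the p53-/- tumors. Plk2 itself ranged from 36.6 to 553 (median, 284) in the Plk2-/-; p53-/- tumors. In the p53-/- tumors it ranged from 186 to 8028 (median, 3402). Of the 13 p53-/- libraries, 12 lay above every Plk2-/-; p53-/- tumor, and only that labelled p53null-7435 did not. Of the Plk2-/-; p53-/- tumors, 6 lay below every p53-/- tumor, and the others lay inside the p53-/- range. A series name stands in the titles of the 13 p53-/- libraries and in no title of the other genotype, so that library batch and genotype cannot be told apart. The labels do not say which tumors were passages of the same tumor, so p-values measure the spread between these libraries. Some libraries were much alike. PLK2null-1984 and PLK2null-7750 had a correlation of 0.979 across genes, and PLK2null-732 and PLK2null-733 one of 0.986, and whether such pairs are passages of 1 tumor was not tested. Each library was entered as 1 sample. In bulk tumor RNA, fewer cells of a type and less RNA per cell cannot be told apart.

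The labelled tissue was checked against epithelial markers. The sum of Epcam, Krt8, Krt18 and Cdh1 was 12793.5 to 109867 in the 25 Plk2-/-; p53-/- tumors not named claudin-low, and 56359 to 272602 in the 12 p53-/- tumors other than T11. In PLK2null-732, PLK2null-733 and PLK2null-743 the same sum was only 40.1 to 248, with Epcam at 87.4, 20.97 and 9.60. In these 3 tumors the summed endothelial markers (Pecam1, Cdh5, Kdr and Tie1) stood at 148610 to 163591, against at most 69904 in any other tumor. The summed T cell markers stood at 2035 to 3484, against at most 1963.6 elsewhere. T11 kept Krt8 at 11057 and Krt18 at 22508 while Epcam was at 81.4 and Cdh1 at 61.9. The claudin-low tumors were therefore not alike in their keratins. The part that other cell types play in the results for these tumors was not tested.

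Stretches upstream of 4 genes, those for both receptors, FOXA1 and CITED1, are shown because these genes ranked high in the same tumors, as described further on. Gata3 ranked high in them too, and its window is not shown. The 9 genes matched 14 upstream windows of 250 bases in RefSeq (GRCm38.p6, the mm10 build). Each sequence runs 5′ to 3′ on the strand of its gene and ends at the base before an annotated start. Capitals mark a match on either strand to a forkhead motif (TGTTTAC or TGTTTGC) or to the half-site of the estrogen response element (GGTCA).
Esr1, chr10:4611739-4611988, plus strand: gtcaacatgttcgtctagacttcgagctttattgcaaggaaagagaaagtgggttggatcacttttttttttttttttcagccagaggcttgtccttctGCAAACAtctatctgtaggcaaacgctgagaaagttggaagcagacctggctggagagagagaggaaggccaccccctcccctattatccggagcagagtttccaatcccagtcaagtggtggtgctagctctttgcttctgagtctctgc
Pgr, chr9:8899583-8899832, plus strand: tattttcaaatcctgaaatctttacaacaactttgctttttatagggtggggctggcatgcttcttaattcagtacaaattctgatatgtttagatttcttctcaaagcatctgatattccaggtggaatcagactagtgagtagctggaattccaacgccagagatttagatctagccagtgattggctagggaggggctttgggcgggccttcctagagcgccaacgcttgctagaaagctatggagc
Foxa1, chr12:57546112-57546361, minus strand: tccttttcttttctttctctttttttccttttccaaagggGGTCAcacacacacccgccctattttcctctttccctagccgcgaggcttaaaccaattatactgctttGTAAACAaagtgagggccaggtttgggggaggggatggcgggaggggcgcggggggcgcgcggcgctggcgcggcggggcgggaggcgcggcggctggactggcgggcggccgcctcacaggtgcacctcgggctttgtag
Cited1, chrX:102252182-102252431, minus strand: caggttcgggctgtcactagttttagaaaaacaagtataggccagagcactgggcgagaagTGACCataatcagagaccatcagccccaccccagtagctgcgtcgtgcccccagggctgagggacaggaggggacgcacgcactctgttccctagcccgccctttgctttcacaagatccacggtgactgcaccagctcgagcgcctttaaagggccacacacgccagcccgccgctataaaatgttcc
The Esr1 window shown held 1 forkhead match, which began at position -151 from the start. The Foxa1 window held a half-site at -210 and a forkhead match at -141. The Cited1 window shown held a half-site at -189, and the Pgr window held no match. Among windows not shown, another of Esr1 held no match. Others of Cited1 held a half-site at -217 or no match, and that of Gata3 held a half-site at -199. Forkhead matches occurred in 2 of the 14 windows and in 7.29% of all 32851 windows of this length. Half-sites occurred in 6 of the 14, which belong to 4 of the genes (Gata3, Greb1, Foxa1 and Cited1), and in 35.2% of all windows. The full palindrome GGTCANNNTGACC, which contains the half-site, was in none of the 14 and in 0.0639% of all windows. GATA motifs (AGATAA or TGATAA) were in none of the 14 and in 16.6% of all windows. A match is a run of letters and was not tested as a binding site.

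Estrogen receptor alpha, encoded by Esr1 (chromosome 10, 4611593 to 5005614, plus strand, GRCm38), was detected in every tumor. Its value was 25.4 at the lowest (PLK2null-1986), 94.0 at the median and 642 at the highest (PLK2null-1965) in the 28 Plk2-/-; p53-/- tumors. In the 13 p53-/- tumors it was 18.2 at the lowest (p53null-5317), 76.9 at the median and 1757 at the highest (p53null-2331L). The p53-/- tumors thus spread more widely at both ends, with 2 of them above and 2 below every Plk2-/-; p53-/- tumor, and the ranges overlapped between these ends. Esr1 was expressed far below the upper quartile in most tumors. Only p53null-2331L and p53null-10155, at 1164, passed 1000.

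Progesterone receptor, the product of Pgr (chromosome 9, 8899833 to 8968611, plus strand), is itself a target of estrogen receptor in the gland. It was listed at 0 in 4 Plk2-/-; p53-/- tumors (PLK2null-733, PLK2null-743, PLK2null-1985 and PLK2null-1986), with a median of 12.4 and a highest value of 3913 in PLK2null-1965. Its lowest p53-/- value was 0.703 in p53null-2153L, its median 39.9 and its highest value 8082 in p53null-2331L. At or below 3 reads it was not distinguishable from absence, which was the case in 6 of 28 and in 1 of 13 tumors. Pgr was the most uneven of the 9 genes. The SD of its log2(value + 1) was larger than that of 99.6% of the tested genes in the Plk2-/-; p53-/- tumors and of 99.7% in the p53-/- tumors.

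FOXA1, a forkhead pioneer factor, is encoded by Foxa1 (chromosome 12, 57540628 to 57546916, minus strand). Its value ran from 1.13 in PLK2null-743 through a median of 462 to 4659 in PLK2null-1965 among the Plk2-/-; p53-/- tumors. Among the p53-/- tumors it ran from 1.30 in T11 through a median of 402 to 3435 in p53null-2331L. Both lowest values belonged to claudin-low tumors, and PLK2null-732 (7.16) and PLK2null-733 (4.19) lay between them and all other Plk2-/-; p53-/- tumors, which began at 10.05. Low Foxa1 was not restricted to that subtype. PLK2null-1985 (10.05), PLK2null-1986 (11.1), p53null-2396R (9.24) and p53null-5329 (18.98) were also far below the median of their genotype, and none of them is among the named claudin-low tumors.

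GATA3, a zinc-finger factor needed for luminal differentiation, is encoded by Gata3 (chromosome 2, 9857078 to 9890034, minus strand). Its lowest value in the Plk2-/-; p53-/- tumors was 24.6 (PLK2null-733), its median 1039 and its highest value 3720 (PLK2null-1965). In the p53-/- tumors the lowest value was 17.8 (p53null-2225L), the median 395 and the highest 6817 (p53null-2331L). The 3 claudin-low Plk2-/-; p53-/- tumors (24.6 to 45.1) and the basal-like PLK2null-1963 (40.4) formed the low end of their genotype, although GATA3 is also a T cell factor and T cell markers were highest in those 3 claudin-low tumors. Gata3 did not always follow Foxa1. PLK2null-1986 had Gata3 at 2812 with Foxa1 at 11.1, whereas p53null-2225L had Gata3 at 17.8 with Foxa1 at 689.

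CITED1 is a transcriptional co-activator that enhances estrogen receptor activity at some target genes, and its gene lies on chromosome X (102247381 to 102252181, minus strand). Cited1 was at 2.82 in PLK2null-743, at 31.7 at the median and at 3376 in PLK2null-1965, the lowest, median and highest of the Plk2-/-; p53-/- tumors. In the p53-/- tumors it was at 19.9 in T11, 190 at the median and 5242 in p53null-10155. No p53-/- tumor was as low as 9 of the Plk2-/-; p53-/- tumors, and 2 p53-/- tumors, p53null-10155 and p53null-2224L (5086), were above all 28.

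**Figure D1:**
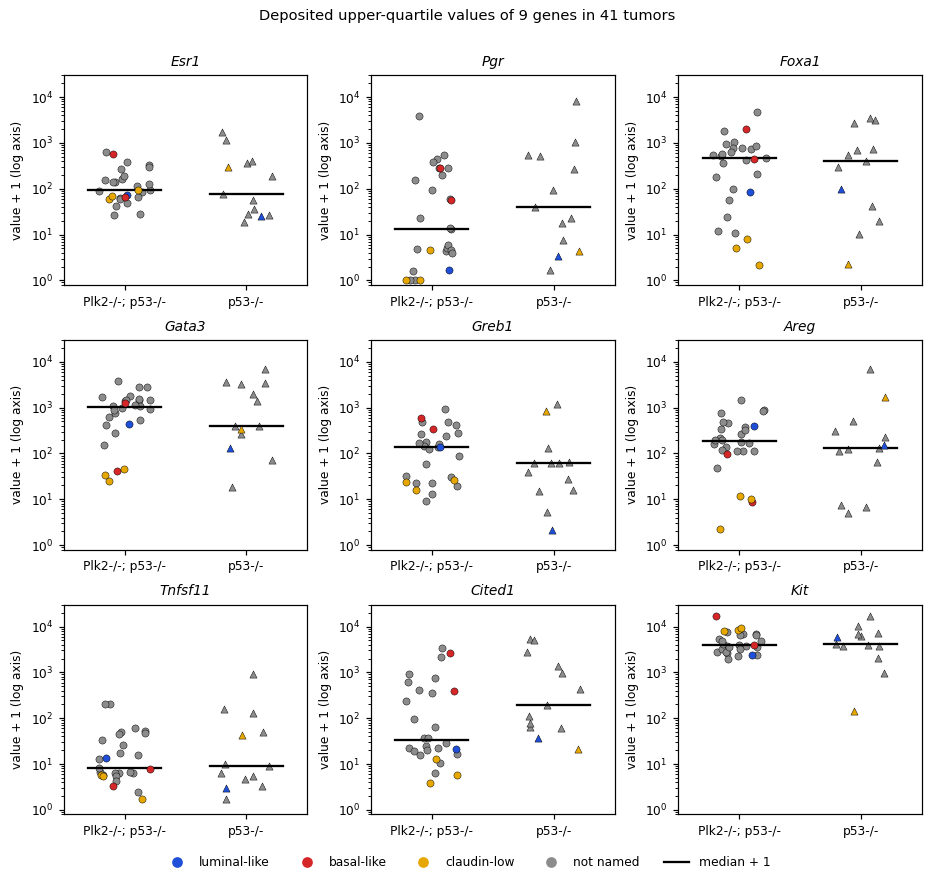
Value + 1 of each of the 9 genes (vertical log axis, upper-quartile units) in the 28 Plk2-/-; p53-/- tumors (circles) and 13 p53-/- tumors (triangles), with colours for the 8 tumors of a named subtype and a bar at the median + 1. Pgr spans from 0 to 8082 and Kit lies between 1972 and 17177 in all tumors but T11 (142) and p53null-2331L (960), and the genotypes overlap in every panel.

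GREB1 is an estrogen-induced cofactor of estrogen receptor and its gene (chromosome 12, 16670615 to 16800886, minus strand) is a common readout of receptor activity. Greb1 ranged from 8.04 (PLK2null-1980) through a median of 136 to 954 (PLK2null-1988) in the Plk2-/-; p53-/- tumors. In the p53-/- tumors it ranged from 1.17 (p53null-2208L) through a median of 60.1 to 1225 (p53null-2331L). The lowest Greb1 of all 41 tumors was thus that of a luminal-like tumor, at about the value of 3 reads, and the third-highest was that of T11, at 858. High Esr1 did not always come with high Greb1, as p53null-10155 had Esr1 at 1164 and Greb1 at 60.3.

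Amphiregulin, a ligand of the EGF receptor through which estrogen drives ductal growth, is encoded by Areg (chromosome 5, 91139599 to 91148432, plus strand). Areg ran from 1.20 (PLK2null-733) through a median of 188 to 1441.5 (PLK2null-1974) in the Plk2-/-; p53-/- tumors. In the p53-/- tumors it ran from 3.98 (p53null-7435) through a median of 129 to 6903 (p53null-10155). T11, at 1745, had the second-highest Areg of all tumors, while the claudin-low Plk2-/-; p53-/- tumors were at 10.7, 1.20 and 9.04. EGF receptor (Egfr), its receptor, and ADAM17, the protease that releases it, were measured in all tumors. Egfr had medians of 611 and 953 and Adam17 medians of 1829 and 1590 in the Plk2-/-; p53-/- and p53-/- tumors, and neither passed the test of the genotypes (limma adjusted p = 0.315 and 0.645).

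RANKL, the progesterone-induced ligand that stimulates neighbouring progenitors, is encoded by Tnfsf11 (chromosome 14, 78277445 to 78308043, minus strand). Tnfsf11 was low in most tumors, at 0.716 (PLK2null-732), 7.04 and 202 (PLK2null-7750) for the lowest, median and highest Plk2-/-; p53-/- tumor. The p53-/- values were 0.703 (p53null-2153L), 8.17 and 913 (p53null-10155). The second-highest Plk2-/-; p53-/- value, 199, was that of PLK2null-1984, the library closest to PLK2null-7750 across all genes. High Pgr did not always come with high Tnfsf11, since PLK2null-1965 had Pgr at 3913 and Tnfsf11 at 15.1, while PLK2null-1984 had Pgr at 5.02. Its receptor RANK (Tnfrsf11a) had medians of 540 and 504 and its decoy receptor osteoprotegerin (Tnfrsf11b) medians of 1042 and 703 in the Plk2-/-; p53-/- and p53-/- tumors (adjusted p = 0.463 and 0.763).

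Kit (chromosome 5, 75574916 to 75656722, plus strand) was the most highly and most evenly expressed of the 9. It ranged from 1972 (PLK2null-1973) through a median of 4003 to 17177 (PLK2null-1963) in the Plk2-/-; p53-/- tumors. In the p53-/- tumors it ranged from 142 (T11) through a median of 4213 to 16976 (p53null-2396R). The 3 tumors with the most Kit shared low Esr1 but not a level of Pgr. Esr1 was 63.7 in PLK2null-1963, 26.8 in p53null-2396R and 35.1 in p53null-7435, the third-highest for Kit. Each was below the Esr1 median of its genotype (94.0 and 76.9). Pgr was 54.4, 21.7 and 515 in these tumors. Low Esr1 did not hold throughout the tumors ranked 4th to 8th for Kit. PLK2null-733 and PLK2null-732 had Esr1 at 68.3 and 58.7. PLK2null-743, PLK2null-7748 and p53null-2224L had it at 94.3, 185 and 405. The tumor with the most Pgr, p53null-2331L, had less Kit (960) than every other tumor but T11. Its ligand stem cell factor (Kitl) had medians of 2851 and 2002 (adjusted p = 0.699).

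Claudin-low tumors stood at opposite ends for Kit. PLK2null-732, PLK2null-733 and PLK2null-743 had Kit at 8455, 9260 and 8006, ranking 5th, 4th and 6th of 41, while T11 at 142 ranked last. KIT is also found on mast cells, so their markers are given beside it. The sum of Cpa3, Mcpt4, Tpsb2, Cma1, Ms4a2 and Fcer1a was 3.58 to 34.4 in the 3 tumors, with Fcer1a at 0 in all 3, and was 2586 in p53null-2331L, where Kit was 960. The summed endothelial markers were highest in the same 3 tumors, and their part in the Kit level was not tested. PLK2null-7763, with the fourth-highest endothelial sum (69904), had Kit at 4859.

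**Figure D2:**
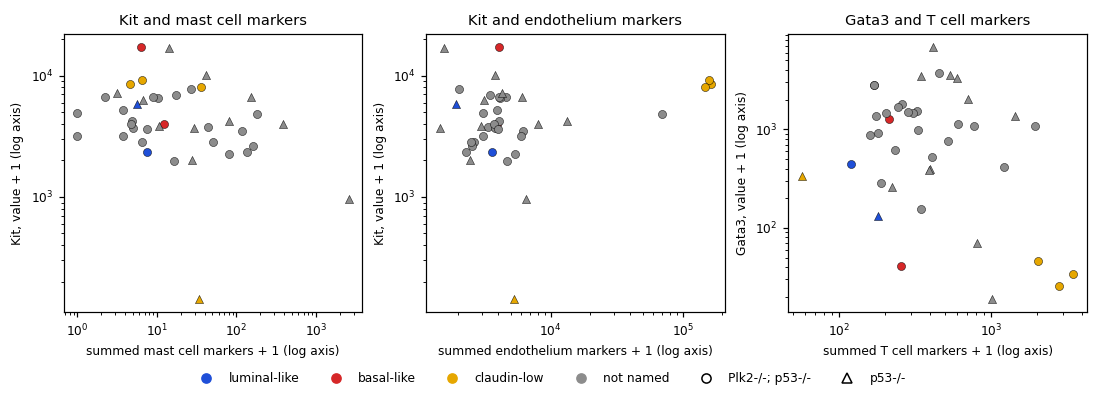
Kit against the summed mast cell markers (left) and the summed endothelial markers (middle), and Gata3 against the summed T cell markers (right), all in upper-quartile units + 1 on log axes, 1 point per tumor. The claudin-low Plk2-/-; p53-/- tumors (yellow circles) sit at endothelial sums of 148610 to 163591 with Kit at 8006 to 9260, and p53null-2331L has the largest mast cell sum, 2586, with Kit at 960.

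Divided by length (merged exons in GENCODE vM21), the levels of the genes can be set against each other. In the Plk2-/-; p53-/- tumors the median value per kb was 449 for Kit, 261 for Gata3, 155 for Areg, 139 for Foxa1, 18.04 for Cited1, 14.2 for Greb1, 6.88 for Esr1, 3.15 for Tnfsf11 and 1.45 for Pgr. In this order the interquartile range of each gene overlapped that of the next. In the p53-/- tumors Kit again led at 473 per kb, followed by Foxa1 at 121, Cited1 at 108, Areg at 106 and Gata3 at 99.4, and then by Greb1 at 6.28, Esr1 at 5.63, Pgr at 4.67 and Tnfsf11 at 3.66. There the interquartile ranges of neighbours overlapped except for Kit with Foxa1 and Gata3 with Greb1. The receptors were thus at the low end in both genotypes, and Kit and the luminal factors at the high end.

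To ask whether loss of Plk2 went with a change of these genes, the 28 Plk2-/-; p53-/- tumors were compared with the 13 p53-/- tumors on log2(value + 1) with limma, adjusting over all genes tested. None of the 9 passed an adjusted p of 0.05, while 39.5% of all 17208 tested genes did, 24.3% higher and 15.3% lower in the Plk2-/-; p53-/- tumors. Of these 9, 1 passed an unadjusted p of 0.05 in the same fit, beside 8163 of all 17208 tested genes. The median difference was -0.02 over the 9 genes and 0.10 over all genes. For every one of the 9, the ranges of the genotypes overlapped. They also overlapped for Plk2 itself and for genes that passed the test, such as Ncor1, so overlap does not set the 9 apart. The share of all genes with overlapping ranges was not counted.

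Cited1 came nearest to the threshold. Its mean log2(value + 1) was 2.08 lower in the Plk2-/-; p53-/- tumors (difference, -2.08, SE 0.93, 95% interval -3.96 to -0.19, unadjusted p = 0.0317, adjusted p = 0.0731). After quantile normalization the difference was -2.21 with an adjusted p of 0.0469, so the call depended on the scaling. It also depended on single tumors. The adjusted p was 0.0392 without T11, 0.0408 without PLK2null-1965, 0.0435 without PLK2null-7747, 0.0459 without PLK2null-1964 and 0.0493 without p53null-2208L, and it reached 0.145 at most.

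Neither receptor passed the test. Esr1 differed by -0.09 (SE 0.52, 95% interval -1.14 to 0.96, adjusted p = 0.913) and Pgr by -1.49 (SE 1.16, 95% interval -3.82 to 0.85, adjusted p = 0.32). With the 7 Plk2-/-; p53-/- tumors whose numbers are also in the latency plot of primary tumors as the only ones of their genotype, the difference turned to 0.65 for Esr1, 0.34 for Pgr and 1.81 for Foxa1, and was -0.80 for Cited1, none past the threshold. The interval for Esr1 leaves room for a change of about 1 on the log2 scale in either direction. For Foxa1 the difference was -0.02 (SE 0.99, 95% interval -2.02 to 1.98, adjusted p = 0.99), and for Gata3 it was 0.04 (SE 0.71, 95% interval -1.40 to 1.48, adjusted p = 0.971). Intervals this wide leave room for a change of several-fold in either direction.

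Among the targets and Kit, no difference passed the test either. Greb1 was 1.01 higher on the log2 scale in the Plk2-/-; p53-/- tumors (SE 0.70, 95% interval -0.41 to 2.42, adjusted p = 0.261), and without the 4 claudin-low tumors the difference was 1.61 with an adjusted p of 0.0574. Areg differed by 0.26 (SE 0.81, adjusted p = 0.831) and Tnfsf11 by -0.36 (SE 0.69, adjusted p = 0.715). Kit had the narrowest interval, with a difference of 0.28 (SE 0.38, 95% interval -0.48 to 1.04, adjusted p = 0.589), and turned to -0.22 without the claudin-low tumors.

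**Figure D3:**
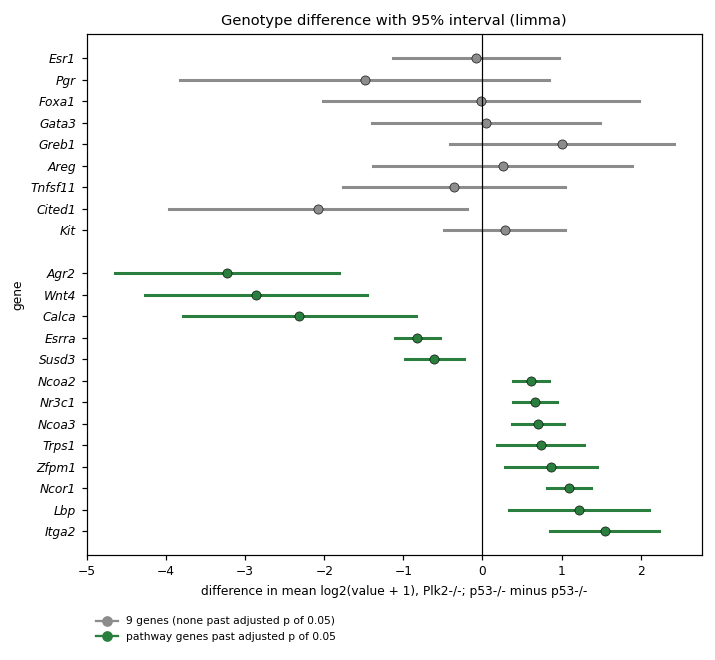
Difference in mean log2(value + 1) between 28 Plk2-/-; p53-/- and 13 p53-/- tumors (horizontal axis) with its 95% interval from limma, for the 9 genes (grey) and the genes of the pathway lists that passed an adjusted p of 0.05 (green). Only Cited1 (-3.96 to -0.19) has an interval without 0 among the 9, and the largest differences are those of Agr2 (-3.23) and Wnt4 (-2.86).

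Genes of the same pathways were counted from lists. Over the lists together, 64 of 72 genes were tested, 8 were higher and 5 were lower in the Plk2-/-; p53-/- tumors, which is 20.3% of those tested against 39.5% of all genes. Of the progesterone paracrine genes, 0 of 7 were higher and 2 were lower, beside 24.3% and 15.3% of all genes. The median difference of the list was -1.21. The lower genes were Wnt4, a progesterone-induced WNT ligand, and Calca, which encodes calcitonin, made under progesterone in the gland. Wnt4 ranged from 1.13 to 821 (median, 59.7) in the Plk2-/-; p53-/- tumors and from 4.76 to 1700 (median, 699) in the p53-/- tumors (difference, -2.86, SE 0.69, adjusted p = 9.55e-04). It was lowest in claudin-low tumors of both genotypes, PLK2null-743 and T11, and 4 p53-/- tumors lay above all 28. Calca was at or below 3 reads in 23 of 28 and 5 of 13 tumors and reached 1316 in p53null-10155 (difference, -2.32, SE 0.73, adjusted p = 0.0101).

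Hormone-sensing luminal genes gave the same 2 calls among 10 tested, with a median of -1.17, since both lists hold Wnt4 and Calca. Both calls were lower, beside 15.3% lower over all genes. Prlr, the prolactin receptor, ranged from 4.52 (PLK2null-743) to 17376 (PLK2null-1965) and from 5.63 (T11) to 11191 (p53null-10155), with a difference of 1.03 (adjusted p = 0.367). Tbx3, a T-box factor of hormone-sensing cells, had medians of 201 and 1119 and an adjusted p of 0.0736. Of 11 tested estrogen-responsive genes, 0 were higher and 2 were lower, beside 24.3% and 15.3% of all genes. Agr2, a disulfide isomerase of the endoplasmic reticulum, was at or below 3 reads in 19 of the 28 and 5 of the 13 tumors, with medians of 0.612 and 64.2 (difference, -3.23, SE 0.70, adjusted p = 2.71e-04), and 8 of the 13 p53-/- tumors lay above all Plk2-/-; p53-/- tumors. Susd3 had medians of 48.7 and 69.4 (difference, -0.61, SE 0.18, adjusted p = 0.00731). Tff1, Tff3 and Pdzk1 did not pass the filter on low values.

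Of the nuclear receptors and their coregulators, 4 of 8 tested genes were higher and 1 was lower, beside 24.3% and 15.3% of all genes, and the list median was 0.60. Ncor1, a co-repressor, had a median of 6025 in the Plk2-/-; p53-/- and 3320 in the p53-/- tumors (difference, 1.09, SE 0.13, adjusted p = 1.37e-08), and 27 of the 28 lay above all 13. The p160 coactivators Ncoa2 and Ncoa3 were higher by 0.61 and 0.71 and the glucocorticoid receptor gene Nr3c1 by 0.66 on the log2 scale. Their adjusted p-values were 2.52e-05, 5.01e-04 and 1.50e-04. Esrra, which encodes an orphan receptor related to the estrogen receptor, was lower by 0.82 (difference, -0.82, SE 0.14, adjusted p = 7.29e-06). Esr2, encoding estrogen receptor beta, did not pass the filter, with medians of 2.54 and 0.703.

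The calls in the remaining lists are given beside 24.3% of all tested genes called higher and 15.3% called lower. Of the luminal progenitor and alveolar regulators, 2 of 11 were higher and 0 lower, namely Itga2, encoding the collagen-binding integrin alpha 2 (difference, 1.54, SE 0.34, adjusted p = 3.46e-04), and Lbp, encoding a lipopolysaccharide-binding protein (1.22, SE 0.44, adjusted p = 0.0247). Elf5, the master factor of alveolar progenitors, had medians of 2856 and 3504 (adjusted p = 0.784) and was at 5.65 in PLK2null-743 and 3.90 in T11. Of the luminal transcription factors, 1 of 11 was higher, Trps1, a GATA-type repressor (difference, 0.74, SE 0.27, adjusted p = 0.029). Among the GATA and FOXA family, 1 of 6 was higher, the GATA cofactor gene Zfpm1 (difference, 0.87, SE 0.29, adjusted p = 0.0142). Gata4, a paralog of Gata3, spread from 0 to 1736.5 and from 0.703 to 1116 (medians, 325 and 31.6) with an adjusted p of 0.333. None of the 9 tested signalling partners of amphiregulin and KIT was called in either direction.

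Without the 4 claudin-low tumors, the 13 list genes named as higher or lower above were all still called, with adjusted p at most 0.0245 (Lbp). With the Plk2-/-; p53-/- group restricted to the 7 primary-numbered tumors, 2942 genes were called in a smaller comparison. Wnt4 (difference, -1.97, adjusted p = 0.148), Calca (-1.08, 0.636), Agr2 (-2.71, 0.154), Itga2 (1.47, 0.0646), Lbp (0.97, 0.413) and Zfpm1 (0.70, 0.191) were not among them, and each kept its direction. Ncor1, Ncoa2, Ncoa3, Nr3c1, Esrra, Susd3 and Trps1 were still called. The basal keratin genes Krt5 (difference, -5.13, SE 1.57, adjusted p = 0.00796) and Krt14 (-3.06, SE 1.14, adjusted p = 0.0302) were lower in the Plk2-/-; p53-/- tumors, so the groups also differed in basal epithelial markers, whose summed medians were 3425 and 22942. In the comparison with the 7 primary-numbered tumors, Krt5 (-3.63, adjusted p = 0.269) and Krt14 (-1.78, adjusted p = 0.385) were not called. Their part in the results above was not tested.

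The named luminal-like tumors were low, not high, in hormone receptors. PLK2null-1975 had Esr1 at 72.8, Pgr at 0.728, Foxa1 at 84.4 and Cited1 at 20.4, each below the median of its genotype, and p53null-2208L had Esr1 at 24.9, Pgr at 2.34, Foxa1 at 98.99 and Cited1 at 35.9, again each below the median. In p53null-2208L, Esr1 ranked 40th of 41. For Gata3 they were at 444 and 131, also below the medians. Their epithelial markers were strong, with Epcam at 21686 and 21976. The luminal-like label was thus not accompanied by high hormone receptor RNA in these libraries. The study itself lists both tumors as luminal-like triple-negative models, a class defined by absence of hormone receptors and HER2. It describes its Plk2-/-; p53-/- luminal-like tumors by luminal gene clusters, low basal markers and high Met.

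The basal-like tumors differed from each other. PLK2null-7747 had Esr1 at 583, Pgr at 281, Foxa1 at 2026, Gata3 at 1268, Greb1 at 581 and Cited1 at 2630, all above the median of its genotype and ranking 4th of 41 for Esr1 and 5th for Foxa1 and Cited1. PLK2null-1963 had Esr1 at 63.7, Gata3 at 40.4 and Areg at 7.60, all below the median, but Greb1 at 345 and Cited1 at 389, above the median, and the most Kit of all tumors. PLK2null-1964, a library much like PLK2null-7747 across genes (correlation, 0.979), had Esr1 at 333, Pgr at 439, Foxa1 at 1816 and Cited1 at 2129, but Areg at 372 where PLK2null-7747 had 97.6.

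The claudin-low Plk2-/-; p53-/- tumors were low in the luminal factors and their targets but not in Esr1. Their Esr1 of 58.7, 68.3 and 94.3 lay well inside the 25.4 to 642 of the other 25. Cited1 was at 12.2, 4.79 and 2.82, and Areg and Foxa1 were as given above. T11 shared the low Foxa1 (1.30), Pgr (3.46) and Cited1 (19.9) but had Esr1 at 303, Gata3 at 335, Greb1 at 858 and Tnfsf11 at 41.1, each above the highest of the other 3. With 1 p53-/- claudin-low tumor, this difference has no replicate check.

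**Figure D4:**
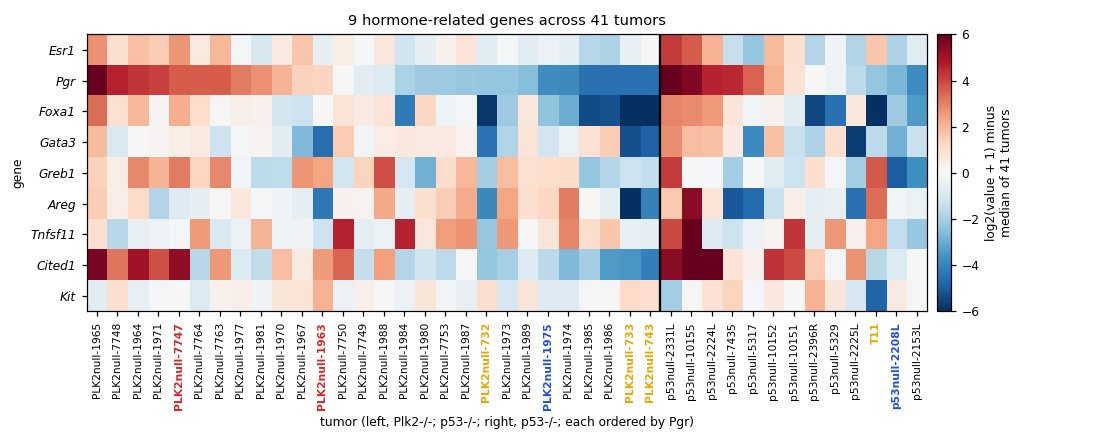
The 9 genes (rows) in 41 tumors (columns, Plk2-/-; p53-/- left and p53-/- right of the line, each ordered by Pgr) as log2(value + 1) minus the median of the gene over the 41 tumors, with subtype colours on the names of the 8 named tumors. On each side of the line, the leftmost columns, from PLK2null-1965 and p53null-2331L onward, are high in Pgr, Cited1 and Foxa1 together, and Kit varies least.

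A few tumors ranked high for most of the receptor and luminal factor genes. For Esr1, Pgr, Foxa1, Gata3 and Cited1, PLK2null-1965, p53null-2331L, p53null-10155 and p53null-2224L were among the 5 highest tumors for all 5 genes. PLK2null-7747 was among them for 3 of the genes. The 4 leading tumors have no named subtype here, and all 4 had much of the basal keratin gene Krt5, at 9781, 19793, 10620 and 26247 in the order given, as did the basal-like PLK2null-7747 at 9505, beside genotype medians of 46.6 and 6141. Trp63 was also above its genotype mean in each, at 11.48 to 12.89 on log2(value + 1) against 7.76 and 10.21. Krt14 was not, at 8.44, 10.10, 11.84 and 13.44 in the 4 and 8.78 in PLK2null-7747. Its genotype means were 8.85 and 11.91, so only p53null-2224L was above. At the other end, PLK2null-733 and PLK2null-743 were among the 5 lowest for 4 of these genes, and PLK2null-732 and PLK2null-1986 for 3. The highest tumors did not share their targets. Areg and Tnfsf11 were highest of all in p53null-10155 (6903 and 913), Greb1 was highest in p53null-2331L (1225), and PLK2null-1965 led none of these.

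Some of the 9 genes varied together within a genotype, others did not. Over the 28 Plk2-/-; p53-/- tumors, Pearson's r on log2(value + 1) was 0.75 for Esr1 with Pgr, 0.79 for Esr1 with Cited1, 0.75 for Pgr with Foxa1 and 0.67 for Esr1 with Greb1. Without the claudin-low tumors these were 0.76, 0.82, 0.72 and 0.66 over 25 tumors. Over the 13 p53-/- tumors they were 0.57, 0.69, 0.76 and 0.58, and 0.67, 0.86, 0.75 and 0.58 over the 12 without T11. Esr1 with Foxa1 had r of 0.63 over the 28 but 0.40 over the 13, or 0.64 without T11. Gata3 with Esr1 had r of 0.11 over the 28 and -0.04 over the 25, against 0.78 over the 13. Kit with Tnfsf11 had r of -0.68 over the 28 and -0.63 over the 25, but -0.34 over the 13 and -0.39 over the 12. These are descriptions without a p, because some libraries may be passages of the same tumor and all share the table's scaling.

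**Figure D5:**
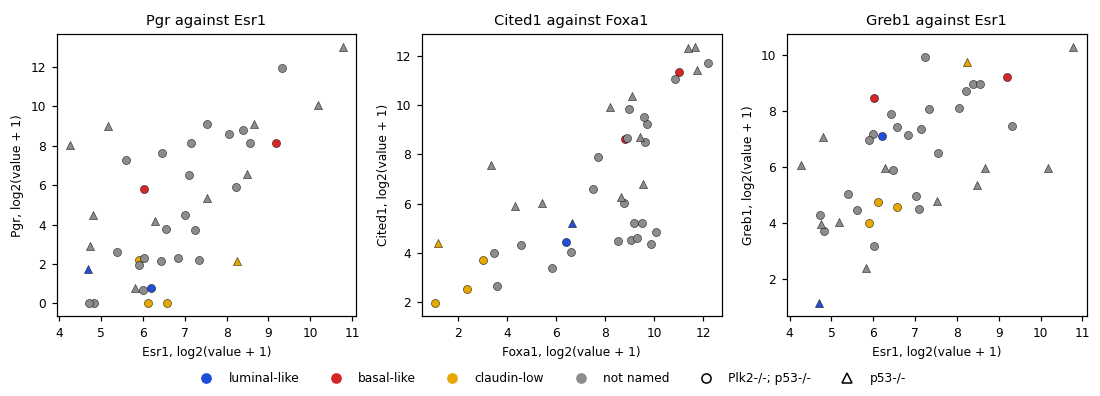
Pgr against Esr1, Cited1 against Foxa1 and Greb1 against Esr1, all as log2(value + 1), 1 point per tumor with circles for Plk2-/-; p53-/- and triangles for p53-/- and colours for the 8 tumors of a named subtype. Pgr rises with Esr1 (r of 0.75 over the 28 Plk2-/-; p53-/- tumors), T11 lies apart with high Esr1 (303) and low Pgr (3.46), and p53null-2208L has the least Greb1 (1.17).

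For each of the 9, the tested genes most like it over the 41 tumors were listed by Pearson's r on log2(value + 1). Pgr was followed most closely by Ptn, the gene for the growth factor pleiotrophin (r = 0.86), Msx2 (0.83) and Abcc8 (0.82). Cited1 was followed by Itih2 (0.89), Fam25c (0.88) and Upk2 (0.88). For Esr1 these were Cyp3a57 (0.84), Tbx3os2 (0.82) and BC030870 (0.82), all at medians under 3 in both genotypes. Gata3 was matched by Apol9a (0.76), Mboat1 (0.75) and Prlr (0.73), and Foxa1 by Ano9 (0.82), Mtmr7 (0.81) and Eps8l1 (0.78). Areg was matched by Ccbe1 (0.86), Adgrg6 (0.74) and Agpat9 (0.73). Part of this likeness came with the claudin-low tumors. Without them, r over the 25 Plk2-/-; p53-/- tumors fell from 0.80 to 0.45 for Gata3 with Mboat1, from 0.81 to 0.50 for Gata3 with Prlr and from 0.78 to 0.40 for Areg with Adgrg6. For Greb1 and Tnfsf11 the likeness was weaker, from 0.69 down to 0.65 (Ccdc171, Klhl11 and Slc6a9) and from 0.69 down to 0.66 (Lgi3, Bdkrb1 and Ptk2b). Those of Kit were Zfp456 (0.71), Sh3tc2 (0.68) and Cngb1 (0.67). Among the p53-/- tumors this likeness leaned on T11, with r of 0.81, 0.77 and 0.73 with T11 and 0.23, -0.06 and 0.45 over the 12 without it. Over the 28 Plk2-/-; p53-/- tumors r was 0.43, 0.51 and 0.65.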

How the data were processed

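RNA of 41 mouse mammary tumors was measured with 1 paired-end mRNA library each. The deposited values are a linear signal: the authors aligned reads to mm10 with STAR, obtained estimated counts per gene with Salmon and scaled every tumor by its upper quartile, which is 1000 over nonzero values. Per the labels, the processing notes name STAR 2.7.6a, SAMtools, Picard 2.22.4 and Salmon 1.4.0. The gene annotation is not given in the sources used here. Low values lay on a step that gives the value of 1 read, but only 77.8 to 80.5% of a tumor's nonzero values were within 0.1 read of a whole number, so no count model was used. A floor of 3 reads allows for counting error alone.

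Genotypes came from the labels, and subtypes, used as a description only, from the study. Genes with a mean of at least 10 over the 41 tumors were tested with limma 3.58.1 (R 4.3.3) on log2(value + 1), 28 against 13 tumors, 2-sided, without a trend, with Benjamini-Hochberg adjustment at 0.05. This scale understates the change of low genes. Named genes were the 9, genes of the lists that passed the test or are receptors, ligands, paralogs or cofactors beside them, and the 3 genes most correlated with each, without predicted genes. The 9 genes and all lists were chosen with earlier results of these data known. Some genes of the lists are not reported here and were left out of their counts. Gene positions and lengths were taken from GENCODE vM21 and upstream sequences from RefSeq (GRCm38.p6). Alternatives were a pseudocount of 10, other filters, a limma trend, quantile and TMM scaling (trimmed mean of M values), a permutation test with 100000 resamples, fewer tumors and each tumor left out. The fit was tested on simulated data. Tables and figures were made in Python 3.11.15 (pandas 2.3.3, numpy 2.4.6, scipy 1.17.1, matplotlib 3.10.9).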

Additional observations from a re-analysis of the deposited data

How the results depend on the processing

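Of 80 alternative values for the 9 genes other than leaving out 1 tumor, 70 kept their direction and their side of the threshold. After quantile normalization Cited1 passed the threshold (-2.21, adjusted p = 0.0469), and a 2-sided permutation test of its difference alone (-2.08) gave p = 0.0364, while TMM scaling gave an adjusted p of 0.0526. Some differences changed sign. In the main fit these lay between -0.09 and 0.28, except that of Pgr at -1.49, but the changed values reached 1.81. Without the claudin-low tumors the value was 0.10 for Esr1, 0.10 for Foxa1 and -0.22 for Kit, with the primary tumors only it was 0.65 for Esr1, 0.34 for Pgr and 1.81 for Foxa1, and Gata3 was at -0.13 after quantile and -0.0899 after TMM scaling. The number of genes called was 6802, 6346 to 7074 with each tumor left out and 2942 with the primary tumors only (1972 higher and 970 lower), a setting with fewer samples. Other settings kept it within 1.5 times. Of the genes called, 61.4% were higher in the Plk2-/-; p53-/- tumors, against 50.7% after quantile and 47.5% after TMM scaling, which moved the median of all genes from 0.10 to -0.03. Ncor1, Ncoa2, Ncoa3 and Nr3c1 stayed higher and called under both scalings, whereas Zfpm1 was not called after quantile (adjusted p = 0.0631) nor Trps1 after TMM scaling (0.0794). With each tumor left out in turn, the difference ran from -0.31 to 0.24 for Esr1, -1.92 to -0.90 for Pgr, -0.56 to 0.31 for Foxa1, -0.38 to 0.33 for Gata3, 0.63 to 1.396 for Greb1, -0.13 to 0.74 for Areg, -0.64 to 0.12 for Tnfsf11, -2.40 to -1.74 for Cited1 and -0.11 to 0.46 for Kit. The cause of these changes was not tested. No paired analysis was possible because the labels give tumor numbers that name tumors and are not shared between genotypes. Values at or below 3 reads, as for Pgr in 7 tumors, could not be told from absence.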
